A study of Homo sapiens with 6 samples.

Results

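The relatives and regulators of the p53 protein were followed in MDA-MB-231 cells, a human triple-negative breast cancer (TNBC) cell line that is known for a mutant p53. The genes were chosen by symbol: TP63 and TP73, the p53 relatives, and MDM2, MDM4, PPM1D, USP7, RCHY1 and COP1, whose proteins set how much p53 a cell holds or how it is modified. Each symbol matched 1 row, so 8 of the 58735 genes in the deposited tables were taken. The groups were vehicle and SCH, an extract of the herb Salvia chinensis Benth. given at 100 mg/l, both for 24 h, with 3 biological repeats each. All 6 samples were of the 1 cell line, with the genotype labelled wild type. Counts over all genes totalled 20291379, 18714240 and 18334857 for the vehicle samples, in the order of the replicate numbers that is kept throughout, against 16836369, 17979434 and 18414924 for the SCH samples.

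In unstressed cells with a normal p53, the ligase MDM2 tags p53 with ubiquitin and keeps its level low, with MDM4 as its partner, and p53 in turn switches on MDM2 transcription, which closes a negative feedback loop. RCHY1 (Pirh2) and COP1 are other ligases of the same loop, USP7 removes ubiquitin from both p53 and MDM2, and the phosphatase encoded by PPM1D (Wip1), itself a p53 target, takes off the phosphates that damage signaling puts on p53. Mutant p53 proteins often accumulate in tumor cells because the loop through MDM2 is broken, and they can bind and inhibit p63 and p73.

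The parts of the loop did not move together after SCH. MDM4 and RCHY1 RNA decreased by 26.4% and 22.3%, and PPM1D RNA rose by 25.9%. MDM2, COP1 and USP7 did not pass the test, which USP7 passed under 2 of 15 alternatives, and TP63 and TP73 were near the limit of detection. Of the 8 genes, 6 passed the filter on low counts and 3 passed the test (50%), against 58.7% of all 14736 genes tested, so the share of genes changed was close to that of the whole transcriptome. The differences were also of ordinary size: 47.2% of all changed genes changed by less than MDM4 did. In these bulk samples, fewer cells with a transcript and less of it per cell cannot be told apart.

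A pair of promoter stretches shows how these genes differ in what lies before their start sites. MDM2 has an internal promoter, known as the one through which p53 acts, whose window holds 2 matches to the p53 site. The 250 bases before the PPM1D start site hold no such match but have the letters TGACGTCA. These are the letters of the cAMP response element, the site known for the CREB factors. Bases after the start site were not searched, so a p53 site elsewhere in PPM1D is not excluded. The sequences are from RefSeq (GRCh38.p14), plus strand, at chr12:68808867-68809001 for MDM2, within the gene and before its internal first exon, and at chr17:60600043-60600182 for PPM1D, upstream of the gene. They end 15 and 10 bases before the RefSeq start sites because annotated exons begin there, and capitals mark the matches.
MDM2 internal promoter: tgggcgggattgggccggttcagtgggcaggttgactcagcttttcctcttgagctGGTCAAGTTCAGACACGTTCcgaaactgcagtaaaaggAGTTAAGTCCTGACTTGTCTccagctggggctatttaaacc
PPM1D promoter: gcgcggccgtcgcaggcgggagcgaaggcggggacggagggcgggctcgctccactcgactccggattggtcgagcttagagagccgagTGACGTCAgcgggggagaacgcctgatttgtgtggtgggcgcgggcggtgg

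The p53 site was searched as the 20-base consensus without a spacer, with at most 3 departures, on both strands, in the 250 bases before each start site. The 8 genes have 18 such windows, some of them overlapping, so that a gene with several start sites had several chances of a match. The MDM2 matches had 2 and 3 departures and ended at positions -75 and -37 from the start site. Of all 34788 windows of that length, 4.38% held such a match. Among the 8 genes, MDM2 and TP73 had one, the TP73 match being at an internal start site, with 2 departures. TGACGTCA, on either strand, was in 1.64% of all windows and, among the 8 genes, in that of PPM1D alone. The ETS letters CCGGAAG were found in MDM4 alone and in 8.5% of all windows, the E2F letters TTTCGCGC or TTTGGCGC in MDM2 and TP73 and in 0.957% of all windows, and CCAAT in 10 of the 18 windows, from 6 of the 8 genes, and in 32% of all windows. These matches describe the sequence only.

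Levels were compared between genes as FPKM, which divides the count by gene length. That length takes in all annotated exonic bases of a gene, not only those of the transcripts expressed. Orders and ratios of levels between genes depend on it. In the vehicle samples USP7 was the highest, at 15.6 ± 0.428 FPKM (SD, n = 3), followed by COP1 at 9.50 ± 0.251. RCHY1, at 6.09 ± 0.133, and MDM2, at 5.86 ± 0.542, were next, and their values overlapped. PPM1D stood at 3.98 ± 0.334 and MDM4 at 2.84 ± 0.329, each apart from its neighbours. TP73 and TP63 were listed at means of 0.0688 and 0.0236 FPKM. MDM2 was thus in the middle of the transcriptome, with 56.1% of the tested genes below it, and MDM4 was somewhat lower, with 40.2% below it.

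After SCH, USP7 and COP1 kept the first places, at 14.5 ± 1.08 and 9.08 ± 0.431 FPKM (SD, n = 3). MDM2 followed at 5.89 ± 0.313 FPKM, then PPM1D at 5.03 ± 0.0949 and RCHY1 at 4.75 ± 0.0116, so RCHY1, which overlapped MDM2 and lay above PPM1D with vehicle, lay below both. No values of neighbours in this order overlapped, although PPM1D and RCHY1 were close. The order of PPM1D and RCHY1 with SCH was not tested. It rests on 464 to 494 and 557 to 614 counts per sample, where counting error is of the size of the gap. MDM4 was again the lowest of the 6 tested genes, at 2.09 ± 0.12 FPKM.

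**Figure D1:**
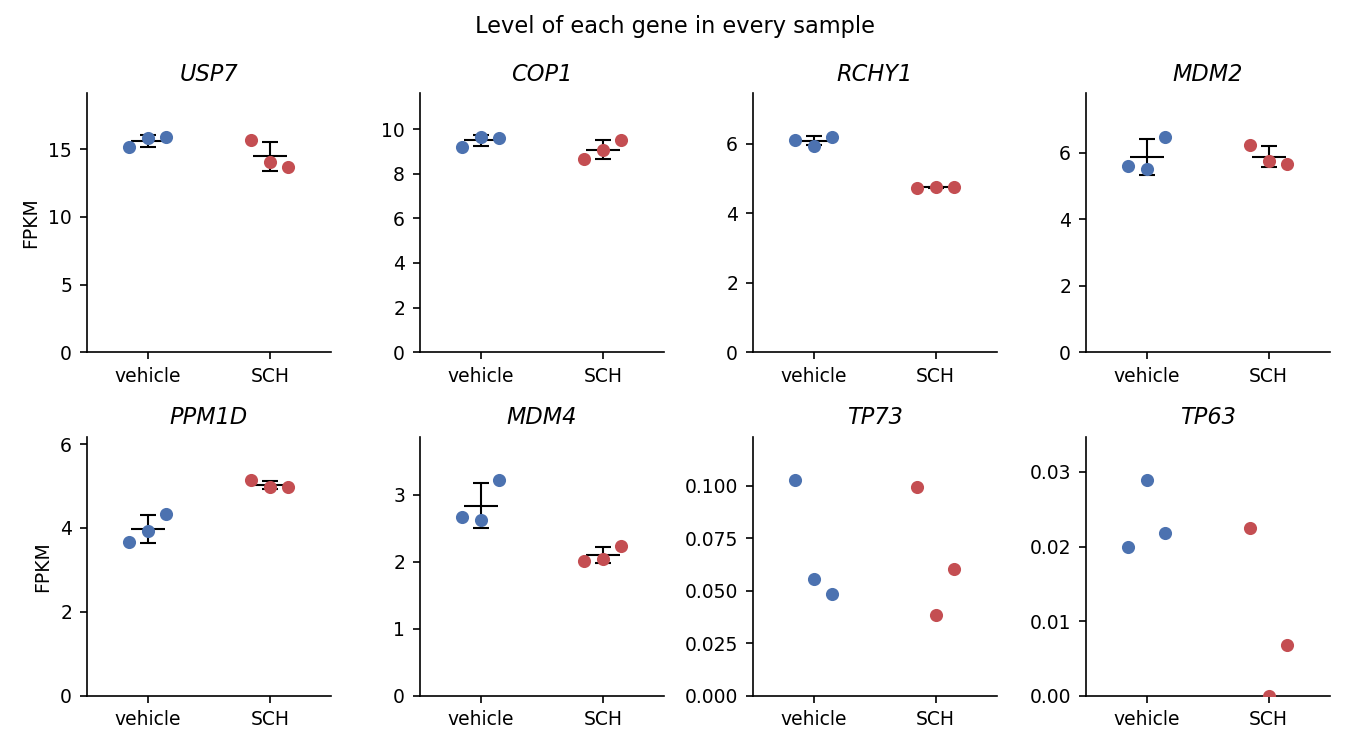
FPKM (counts per gene length and sample scale) of the 8 genes in each of 3 vehicle (blue) and 3 SCH (red) samples, with an axis from 0 for each gene. Bars are the mean and SD for the 6 genes that were tested. The groups are apart for RCHY1, MDM4 and PPM1D and overlap for USP7, COP1 and MDM2, and TP73 and TP63 lie near 0.

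MDM2 and MDM4 form the ligase pair at the center of the loop. MDM2 (ENSG00000135679, chromosome 12, 68808176 to 68850686, plus strand, GRCh38) had 1498, 1359 and 1587 counts in the vehicle samples and 1485, 1463 and 1482 in the SCH samples. Scaled to a common depth with edgeR's TMM factors, these were 76.8, 75.7 and 89.2 CPM (counts scaled to a common total) with vehicle and 85.1, 78.5 and 77.9 CPM with SCH. The groups overlapped, with vehicle replicate 3 the highest of all samples. The means were 80.6 ± 7.52 and 80.5 ± 4.00 CPM (SD, n = 3), the log2 fold change was -0.00079 with a standard error of 0.064 (edgeR quasi-likelihood test, adjusted p = 0.993), and the 95% interval of the fold ran from 0.911 to 1.10. Of the exonic bases of MDM2, 9.21% are shared with other annotated genes, among them an antisense gene, and the strand setting of the counting is not given in the sources used here.

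MDM4 (ENSG00000198625, chromosome 1, 204516379 to 204558120, plus strand), the partner that has little ligase activity of its own and covers the activation domain of p53, fell after SCH. Its counts were 592, 537 and 652 with vehicle and 396, 431 and 483 with SCH. As normalized values these were 30.3, 29.9 and 36.7 CPM against 22.7, 23.1 and 25.4 CPM. All 3 SCH samples lay below all 3 vehicle samples. The groups were apart in this way for 3 of the 6 tested genes (50%), MDM4, RCHY1 and PPM1D, against 62.4% of all genes tested, and SCH was the lower group in 31.3% of all genes tested and the higher in 31.1%. The mean went from 32.3 ± 3.78 to 23.7 ± 1.45 CPM (SD, n = 3), and the log2 fold change was -0.44 with a standard error of 0.085 (edgeR, adjusted p = 9.6e-05). Among all genes tested, 29.4% were lowered and 29.3% raised.

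Because the MDM2 and MDM4 proteins work as a pair, the ratio of their RNAs was taken within each sample. MDM4 FPKM over MDM2 FPKM was 0.477, 0.477 and 0.496 in the vehicle samples and 0.322, 0.356 and 0.393 in the SCH samples. All SCH samples were lower, with a wider spread among them than among the vehicle samples. The mean ratio was 0.483 ± 0.0109 with vehicle and 0.357 ± 0.0358 with SCH (SD, n = 3), a log2 difference of -0.44. The exact two-sided permutation test gave p = 0.1, the smallest that 3 samples against 3 can give.

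**Figure D2:**
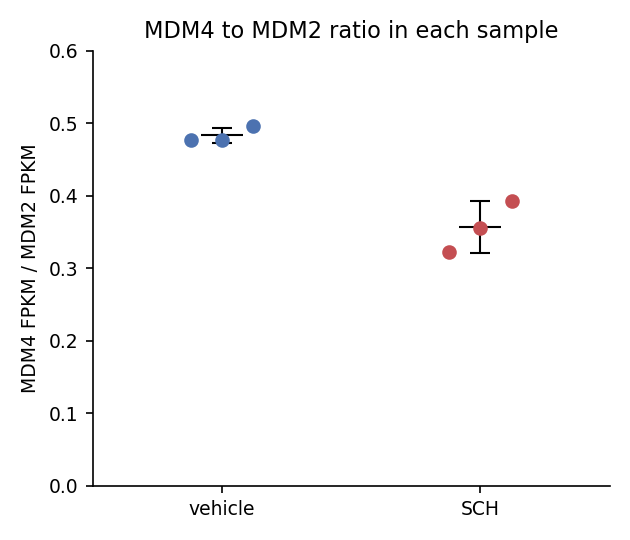
Ratio of MDM4 FPKM to MDM2 FPKM in each of the 3 vehicle and 3 SCH samples, on an axis from 0, with the mean and SD as bars. The vehicle samples lie between 0.477 and 0.496 and the SCH samples between 0.322 and 0.393.

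Of the other ligases, RCHY1 fell and COP1 did not pass the test. RCHY1 (ENSG00000163743, chromosome 4, 75479037 to 75514764, minus strand), a RING ligase that is known to bind p53 and p73, had 810, 725 and 751 counts with vehicle and 557, 600 and 614 with SCH. As normalized values these were 41.5, 40.4 and 42.2 CPM against 31.9, 32.2 and 32.3 CPM. The groups were apart, with means of 41.4 ± 0.930 and 32.1 ± 0.183 CPM (SD, n = 3). The SCH spread was narrower than counting error alone would usually give at 557 to 614 counts. It is therefore not a measure of how exact these values are. The log2 fold change was -0.36 with a standard error of 0.065 (edgeR, adjusted p = 4.6e-05), the smallest adjusted p of the 8 genes. THAP6 lies on the other strand and shares 8.33% of the exonic bases of RCHY1.

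Among genes averaging 100 or more counts, the 5 whose log2 CPM followed that of RCHY1 most closely were HNRNPU, LPAR1, DTWD2, POU2F2 and FOXP2. Pearson's r over the 6 samples, rounded, was 0.999 for FOXP2, the lowest of the 5. These correlations are descriptions, since the 6 points are mainly a contrast of 2 groups: 1719 of the 10708 genes compared had an r over 0.95 with RCHY1. The log2 fold changes of the 5 genes ran from -0.46 for POU2F2 to -2.03 for FOXP2.

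COP1 (ENSG00000143207, chromosome 1, 175944831 to 176207493, minus strand), a ligase that also degrades JUN and ETS factors, had 815, 787 and 777 counts with vehicle and 679, 762 and 820 with SCH. These were 41.8, 43.8 and 43.7 CPM against 38.9, 40.9 and 43.1 CPM, and the groups overlapped through SCH replicate 3. The log2 fold change was -0.07 with a standard error of 0.066 (edgeR, adjusted p = 0.364), and the 95% interval of the fold was 0.866 to 1.05. Its sign depended on the scaling, with a log2 fold change of 0.03 when only the library size was used. With 1 replicate left out, the log2 fold change ran from -0.099 to -0.031, the latter without SCH replicate 1.

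USP7 (ENSG00000187555, chromosome 16, 8892094 to 8964514, minus strand), the deubiquitinase that stabilizes MDM2 and p53, had 2435, 2339 and 2340 counts with vehicle and 2243, 2148 and 2147 with SCH. The normalized values were 125, 130 and 132 CPM with vehicle and 129, 115 and 113 CPM with SCH. SCH replicate 1 lay among the vehicle samples, while the other SCH samples lay below all of them. The means were 129 ± 3.58 and 119 ± 8.46 CPM (SD, n = 3), with a log2 fold change of -0.12 and a standard error of 0.056 (edgeR, adjusted p = 0.0764), and the 95% interval of the fold, not adjusted for the number of genes, was 0.852 to 0.999. The call turned on that library and on the scaling: without SCH replicate 1 the log2 fold change was -0.17 (edgeR, adjusted p = 0.0129), with upper quartile scaling it was -0.15 (adjusted p = 0.0244), with library size only it was -0.013, and over all alternatives the adjusted p ran from 0.0129 to 0.851.

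PPM1D was the one gene of the 8 that rose. It (ENSG00000170836, chromosome 17, 60600183 to 60666280, plus strand) had 374, 368 and 403 counts with vehicle and 464, 481 and 494 with SCH. As normalized values these were 19.2, 20.5 and 22.7 CPM against 26.6, 25.8 and 26.0 CPM. All SCH samples lay above all vehicle samples. The mean rose from 20.8 ± 1.76 to 26.1 ± 0.415 CPM (SD, n = 3), a log2 fold change of 0.33 with a standard error of 0.081 (edgeR, adjusted p = 0.00118). PPM1D shares no exonic base with another annotated gene.

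**Figure D3:**
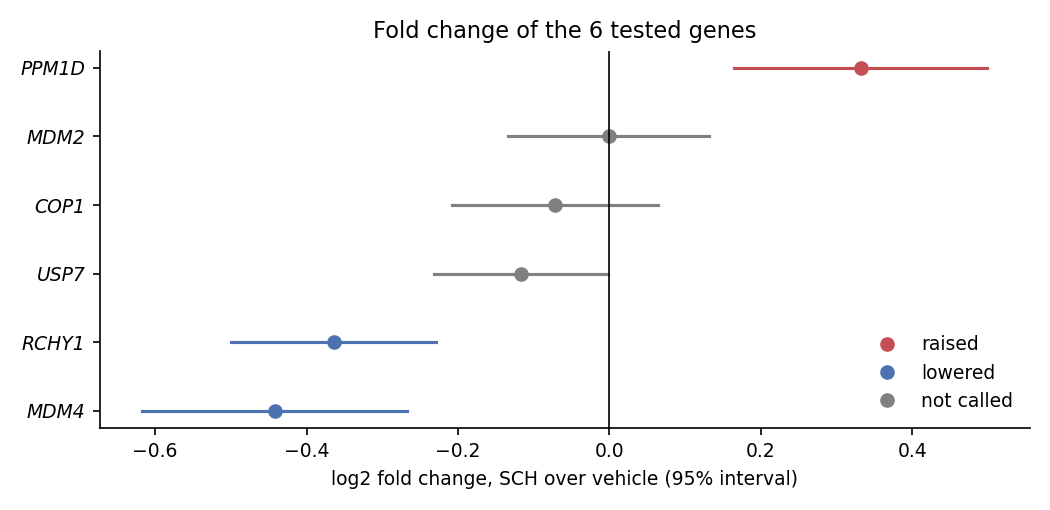
Log2 fold change of SCH over vehicle for the 6 tested genes (points) with the 95% interval of edgeR's quasi-likelihood fit (lines). MDM4 and RCHY1 were lowered, PPM1D was raised, and the points of USP7, COP1 and MDM2 lie between -0.12 and 0.

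The p53 relatives were hardly detected. TP63 (ENSG00000073282, chromosome 3, 189631416 to 189897279, plus strand), known as the master factor of basal and squamous epithelium, had 3, 4 and 3 counts with vehicle and 3, 0 and 1 with SCH. These are at or about the floor of 3 counts per sample. The ratio of the summed rates was 0.431 with an exact 95% interval of 0.0986 to 1.49 from counting error only, so a difference was not detectable at this depth. TP73 (ENSG00000078900, chromosome 1, 3652520 to 3736201, plus strand), whose protein can activate many p53 targets, had 14, 7 and 6 counts with vehicle and 12, 5 and 8 with SCH. Its summed rate was 0.471 CPM with vehicle and 0.470 CPM with SCH, a ratio of 0.997 with an interval of 0.555 to 1.79 of the same kind. The antisense gene TP73-AS1 shares 9.36% of the exonic bases of TP73, so even these few reads are uncertain in origin.

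Markers of the cell types were read beside these levels. Of 9 basal breast markers, KRT5 had 0 counts in every sample, which allows up to 3 counts or 0.178 CPM in the shallowest sample, and DSG3 was at or under the floor in every sample. The most abundant of that list was EGFR, at a mean of 39.5 FPKM, and the list summed to 75.5, 77.9 and 77.6 FPKM with vehicle and 78.0, 73.8 and 69.9 FPKM with SCH. In that list KRT15 and KRT17 were raised and EGFR was lowered. The 7 markers of the mesenchymal state of the line, led by AXL, summed to 875, 889 and 878 FPKM with vehicle and 598, 602 and 601 FPKM with SCH. VIM, AXL, MSN and CAV1 were lowered, CD44 and ZEB1 did not pass the test, and SPARC was not tested. The 9 luminal markers, led by KRT8, summed to 278, 287 and 262 FPKM with vehicle and 208, 196 and 201 FPKM with SCH, a sum carried by KRT8 and KRT18. In that list KRT8, KRT18, GATA3 and EPCAM were lowered, FOXA1 (2.23-fold) and ERBB2 (1.22-fold) were raised, and ESR1, PGR and CDH1 were too low to test. The 9 markers of other cell types summed to between 1.39 and 1.81 FPKM in any sample, with COL1A1, which was raised, the most abundant, and PTPRC was lowered. The mesenchymal and luminal sums were lower with SCH, although not all of their genes were, and their part in the results for MDM4, RCHY1 and PPM1D was not tested.

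The rest of the pathway was read from 9 lists of 102 genes, grouped by role. Of these, 98 were tested, and 41 were raised and 29 lowered, which is 71.4% against 58.7% of all genes tested. The shares to set beside the counts of each list are 29.3% raised and 29.4% lowered among all genes tested. Their median log2 fold change was 0.07, against 0.00 for all genes. The lists differed in the balance of rises and falls. Medians near 0 depended on the scaling. With library size only, which shifts the median of all genes to 0.10, the medians were -0.012 for the chaperones, -0.093 for acetylation and methylation, 0.16 for both lists of ligases, 0.18 for the ASPP proteins and the kinases and 0.19 for the deubiquitinases. With upper quartile scaling several were lower than in the main fit, at 0.024 and 0.021 for the lists of ligases. The ASPP proteins and the kinases then stood at 0.043 and the deubiquitinases at 0.056. The median over all lists was 0.17 with library size only and 0.038 with upper quartile scaling. The inhibitors of MDM2 and the p53 target genes moved by less than 1.5 times under the alternatives.

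The inhibitors of MDM2 were nearly all lowered. This list holds ARF (CDKN2A) and the ribosomal and nucleolar proteins that bind MDM2 when ribosome assembly is disturbed. All 7 tested genes changed, 6 of them downward, with a median log2 fold change of -0.56. NPM1, the nucleolar protein that holds ARF, went from 1885, 1818 and 1980 CPM with vehicle to 1053, 1101 and 1155 CPM with SCH, a log2 fold change of -0.78. RPL23, a ribosomal protein that binds MDM2, changed by -0.62 and nucleolin (NCL) by -0.60. RPL5, RPL11 and RPS7 also fell, by between 0.49 and 0.56 on the log2 scale. NUMB, which protects p53 from MDM2, was the one that rose, by 0.16 (edgeR, adjusted p = 0.0124), a call that was lost without vehicle replicate 1 (adjusted p = 0.0553, over all alternatives 0.00019 to 0.0553). CDKN2A had 0 counts in all 6 samples. Ribosomal protein genes and NPM1 have many processed copies in the genome, which makes their counts uncertain where reads could be split.

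Among the other ubiquitin ligases and their partners, 6 of 14 tested genes rose and 2 fell (57.1% changed, against 58.7% of all genes tested). The median log2 fold change was 0.06. That median ran from 0.015, without SCH replicate 1, to 0.098, without SCH replicate 2 or 3, and was also higher, at 0.096, without vehicle replicate 3. UBE2D1, an E2 enzyme that works with MDM2, rose from 28.5 ± 2.70 to 48.8 ± 2.52 CPM (SD, n = 3), a log2 fold change of 0.77 (edgeR, adjusted p = 4.6e-09). SYVN1, a ligase of the endoplasmic reticulum, rose by 0.69 and TOPORS, a ubiquitin and SUMO ligase, by 0.59. The other E2 genes of the list differed: UBE2D2 fell by 0.31 on the log2 scale, and UBE2D3 did not pass the test at -0.06. CUL4A, the scaffold of a cullin complex that COP1 can join, fell by 0.39. DDB1, the adaptor of the same complex, had a log2 fold change of -0.09 (edgeR, adjusted p = 0.10), and DET1, the link between that complex and COP1, was too low to test.

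Of the 7 ligases and partners of p63 and p73, 3 rose and 2 fell, with a median of 0.05. With 1 library left out the median ran from 0.019, without vehicle replicate 3, to 0.082, without vehicle replicate 2, and it was also lower without SCH replicate 1 and higher without SCH replicate 3. ITCH and WWP1, ligases of the NEDD4 family that target p63 or p73, rose by 0.23 and 0.24, and NEDD4L of the same family fell from 377 ± 8.93 to 278 ± 3.32 CPM (SD, n = 3), a log2 fold change of -0.44. The call of WWP1, unlike that of ITCH, was lost without vehicle replicate 2 (log2 fold change 0.19, edgeR, adjusted p = 0.0527, over all alternatives 0.000495 to 0.0527). FBXO45, known as a ligase of p73, rose by 0.16 (edgeR, adjusted p = 0.0259), a call lost under 5 of 15 alternatives, over which the adjusted p ran from 0.000715 to 0.096. YAP1, a coactivator that binds p73, fell by 0.20 on the log2 scale, but its log2 fold change was -0.10 and the call was lost with library size as the only scaling (edgeR, adjusted p = 0.10, over all alternatives 0.000484 to 0.10). Without vehicle replicate 2 the count of changed genes in this list was 3, not 5.

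Of 8 tested deubiquitinases and partners other than USP7, 2 rose and 1 fell (37.5% changed), with a median of 0.09. USP11, which removes ubiquitin from p53, went from 69.0, 74.6 and 69.9 CPM with vehicle to 123, 126 and 124 CPM with SCH, a log2 fold change of 0.80 (edgeR, adjusted p = 1.1e-11). OTUD5 rose by 0.30. USP10, which acts on p53 in the cytoplasm, fell by 0.29 on the log2 scale. DAXX, which brings USP7 to MDM2, did not pass the test at -0.03. With library size as the only scaling, 6 genes of this list passed the test.

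The kinases of p53 and MDM2 changed in 6 of 11 cases (54.5%, against 58.7% of all genes tested), 4 upward and 2 downward. Their median was 0.08. ATM, the kinase of the response to double-strand breaks, rose by 0.26 and AKT1, which phosphorylates MDM2, by 0.17. DYRK2 rose by 0.14 (edgeR, adjusted p = 0.0459), a call that most alternatives did not keep. HIPK2, a kinase of the apoptotic serine of p53, fell by 0.45, and PRKDC, the catalytic subunit of DNA-PK, fell by 0.34. ATR, CHEK1 and CHEK2 did not pass the test. With library size as the only scaling, 10 of the 11 passed.

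Enzymes that acetylate, deacetylate or methylate p53 changed in 12 of 14 cases, 4 upward and 8 downward, with a median of -0.20. The deacetylase SIRT1 rose by 0.60, and the acetyltransferases KAT2B and EP300 by 0.58 and 0.37. The methyltransferases EHMT2 and PRMT5 fell by 0.61 and 0.38 on the log2 scale. The deacetylase HDAC2 fell by 0.36, and KAT5, another acetyltransferase, by 0.21 (edgeR, adjusted p = 0.027).

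The ASPP proteins steer p53 toward or away from apoptotic targets, and their genes moved in both directions. PPP1R13B (ASPP1) rose from 11.9 ± 0.0896 to 23.4 ± 1.78 CPM (SD, n = 3), a log2 fold change of 0.97 (edgeR, adjusted p = 2.8e-09), and TP53BP2 (ASPP2) rose by 0.23. On the log2(FPKM + 1) scale the difference for PPP1R13B was 0.61. PPP1R13L (iASPP), the inhibitory member, fell by 0.33. TP53BP1, the DNA break factor that binds p53, rose by 0.38, and BRD7 did not pass the test. In all 3 rose and 1 fell of 6, with a median of 0.08 that was 0.12 without vehicle replicate 2.

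Chaperones that hold mutant p53 fell in 4 of 8 cases and rose in 2, with a median of -0.12. HSPA8, the constitutive HSP70, fell from 2334 ± 72.3 to 1398 ± 53.8 CPM (SD, n = 3), a log2 fold change of -0.74, and HSP90AB1, the constitutive HSP90, changed by -0.39. Their stress-inducible counterparts went the other way, with a rise of 0.60 for HSPA1A and 0.15 for HSP90AA1 (edgeR, adjusted p = 0.0125 for the latter). The groups were apart for HSPA1A but overlapped for HSP90AA1, where vehicle replicate 3 (2382 CPM) lay above SCH replicate 1 (2367 CPM). HSPA1A had a low level, of 6.91 CPM with vehicle, and its near-identical copy HSPA1B makes its count uncertain. AHSA1, a cochaperone that drives HSP90, fell by 0.21, but its log2 fold change was -0.11 and the call was lost with library size as the only scaling (edgeR, adjusted p = 0.0513, the highest of all alternatives, the lowest being 6.4e-05).

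Genes known as p53 targets, among which MDM2 and PPM1D would also be counted, rose in 16 of 23 cases and fell in 3, with a median log2 fold change of 0.43. CDKN1A, which encodes the cell cycle inhibitor p21, went from 100, 112 and 97.6 CPM with vehicle to 513, 531 and 532 CPM with SCH, a log2 fold change of 2.34 (edgeR, adjusted p = 1.5e-19). TP53INP1, a stress protein that works with HIPK2, rose by 2.13 and BBC3, which encodes the apoptotic protein PUMA, by 1.11. On the log2(FPKM + 1) scale, where the pseudocount shrinks the change of low genes, the difference for TP53INP1 was 1.09. AEN, CCNG1 and BAX were lowered, with log2 fold changes of -0.64, -0.30 and -0.28. Beside these, the fold of MDM2 had an interval of 0.911 to 1.10, and that of PPM1D was 1.26 with an interval of 1.12 to 1.41, and the difference between the folds was not tested.

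**Figure D4:**
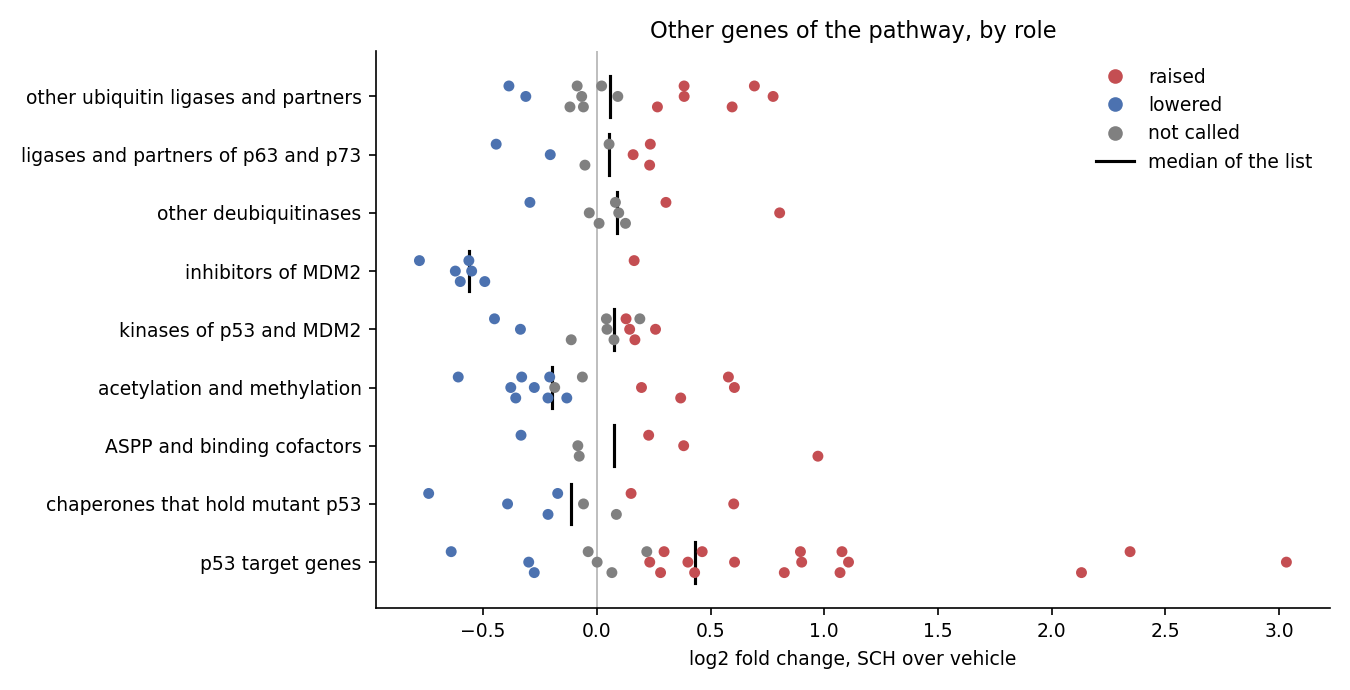
Log2 fold change of SCH over vehicle for each of the 98 tested genes of 9 lists, by role, colored by the call of edgeR's quasi-likelihood test (red raised, blue lowered, gray not called), with the median of each list as a black line. The inhibitors of MDM2 lie to the left of 0 except NUMB, and the p53 target genes reach farthest to the right.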

How the data were processed

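MDA-MB-231 cells were sequenced from poly-T purified mRNA in 6 samples. The authors deposited raw counts per gene and FPKM values, the latter proportional within a sample to count over gene length. The submitters' processing notes name CASAVA 1.8, HISAT2 2.0.5, featureCounts 1.5.0-p3, DESeq2 1.20.0 and GRCh38, without roles. All 8 genes have the same coordinates in GENCODE 29.

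For the counts, edgeR 4.0.16 was used under R 4.3.3 (TMM, filterByExpr, quasi-likelihood test, no covariates), and p-values were adjusted over all 14736 tested genes (Benjamini-Hochberg, threshold 0.05). The common biological coefficient of variation was 5.17%. The standard error is the absolute log2 fold change over the square root of F. Chi-square over its degrees of freedom was 2.12 to 5.81 between samples of a group, so none was a copy of another. Samples are grouped by their labels as 3 biological repeats each.

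The members and lists were chosen with earlier results of these data known. In each list, at most 3 raised and 3 lowered genes were named by size, averaging 100 or more counts and with groups apart, and CDKN1A in any case. Other list genes were named after their values were seen. Promoter windows are RefSeq's, and windows were found for all 8 genes. The fit was tested on simulated data. Alternatives were RLE, library size only and upper quartile scaling, no filter, a minimum of 10 counts in each sample, DESeq2 1.42.0 and limma 3.58.1 with trend on log2(FPKM + 1) and log2(FPKM + 0.1), the replicate block, each replicate left out and a fold threshold. Figures were made with Python 3.11.15.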

Additional observations from a re-analysis of the deposited data

How the results depend on the processing

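MDM4, RCHY1 and PPM1D kept direction and call under all 15 alternatives other than a fold threshold, with log2 fold changes of -0.49 to -0.31, -0.40 to -0.26 and 0.28 to 0.43. MDM2, never past the threshold, had the other sign with RLE (0.0037), library size only (0.10), no filter (0.017), DESeq2 (0.0037), limma on FPKM with pseudocounts 1 (0.0073) and 0.1 (0.0087) and the replicate block (0.0014), and ran from -0.041 to 0.079 with 1 replicate left out. COP1 changed sign with library size only (0.031). USP7 passed the threshold with upper quartile scaling (-0.15), and ran from -0.17 to -0.069 with 1 replicate left out, -0.17 being without SCH replicate 1. No pairing by replicate number was seen. The deviations of same-numbered samples correlated at 0.039, -0.023 and 0.014, and those of differently numbered samples at -0.073 to 0.061. With 3 samples in each group this check cannot exclude a pairing.

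Library size only moved the median of all genes to 0.10 and the split of calls from 4318 raised and 4332 lowered to 5519 and 3295, and the calls from 3 to 6 deubiquitinases and from 6 to 10 kinases. It also moved BAX (-0.17), CCNG1 (-0.20), USP10 (-0.19) and AKT1 (0.27) by over 1.5 times without a change of call. The same held for NUMB (0.27) and FBXO45 (0.26), among others. With 1 replicate left out, 3 to 6 ligases and partners of p63 and p73 were called. With an absolute log2 fold change of at least 1, 1292 genes were left, 573 raised and 719 lowered, none of them among the 8 genes. Of the 42 list genes named by the rule, 36 kept direction and call and 6 did not (WWP1, FBXO45, YAP1, NUMB, DYRK2 and AHSA1). Depth limits TP63 and TP73, and p-values measure the spread of 3 repeats of 1 line.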
